A study of Mus musculus with 6 samples.

Results

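Cytokines, chemokines and ligands of the tumour necrosis factor (TNF) family, with their receptors, were compared between cochlear organoids kept in soft and in stiff gels. The members were chosen by gene symbol alone, from the naming patterns of these families (Tnf, Tnfsf, Tnfrsf, Il, Ccl, Cxcl, Cx3cl1, Ccr, Cxcr, Ackr, Csf, Lif, Lifr, Osmr and the interferon receptor genes), leaving out Il17rd. This gave 98 of the 15016 genes in the deposited table, of which 43 encode ligands, 54 encode receptors and 1, Il18bp, encodes a secreted binding protein. RNA was measured in 6 libraries, 3 from each gel. All were from wild-type mouse cochlear progenitor cells of the inner ear, grown as organoids in an expansion medium. Both groups then shared a differentiation medium that held CHIR99021, which inhibits the kinase GSK3, and LY411575, which inhibits gamma-secretase, so soft and stiff gels alike had both agents. The organoids were divided between gels of 2 stiffness levels when differentiation began; the sources used here give neither the stiffness values nor the time in the gel nor the age of the animals. The libraries are numbered 1 to 3 within each gel, with no word on whether they are separate cultures or animals; the p-values below therefore cover the spread of these 6 libraries alone, and that spread may be technical.

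Cytokines are secreted or membrane-bound proteins through which cells signal to each other. Those of the interleukin-6 group act through receptors that share the subunit gp130 (Il6st) and through JAK kinases and STAT transcription factors, with Socs3 as a feedback inhibitor that is itself a STAT target. TNF family ligands and the interleukin-1 and interleukin-17 receptors act largely through the transcription factors NF-kB and AP-1, and chemokines act through G protein-coupled receptors, while the atypical receptors Ackr3 and Ackr4 bind chemokines, take them up and do not signal through G proteins. In the cochlea, cytokines and chemokines are best known from supporting cells, fibrocytes and macrophages after noise or ototoxic injury.

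Organoids in stiff gels had less RNA of 13 members, among them Tnfsf8, the ligand of CD30, the decoy receptor gene Tnfrsf11b, the monocyte chemokines Ccl2 and Ccl7, and the gp130 group genes Lif, Osmr and Il6st. They had more RNA of 4 members, the atypical chemokine receptors Ackr3 and Ackr4, the chemokine Cxcl12 and the TNF receptor family gene Tnfrsf12a. These calls are Benjamini-Hochberg adjusted p under 0.05 over all tested genes in limma, on log2(FPKM + 1), where FPKM is a level scaled by gene length and library depth, and fold changes are stiff minus soft on that log2 scale. Genes with a mean of at least 1 FPKM in either gel were tested, which kept 59 of the 98 members. Of these, 17 (28.8%) were called, beside 5.81% of all 11780 tested genes; the called shares of all tested genes were 3.13% higher and 2.68% lower in stiff gels. Of the 59 tested members, 7 passed the level filter through 1 gel only. With a filter on the mean over all 6 libraries, which does not look at the gels, 55 members were tested and 3 were higher and 11 lower, beside 5.56% of all genes called under that filter. No call held whichever library was left out: 0 of the 17 were called in all 6 such fits, as described below. These are bulk libraries, in which fewer cells of a type and less RNA per cell cannot be told apart.

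**Figure D1:**
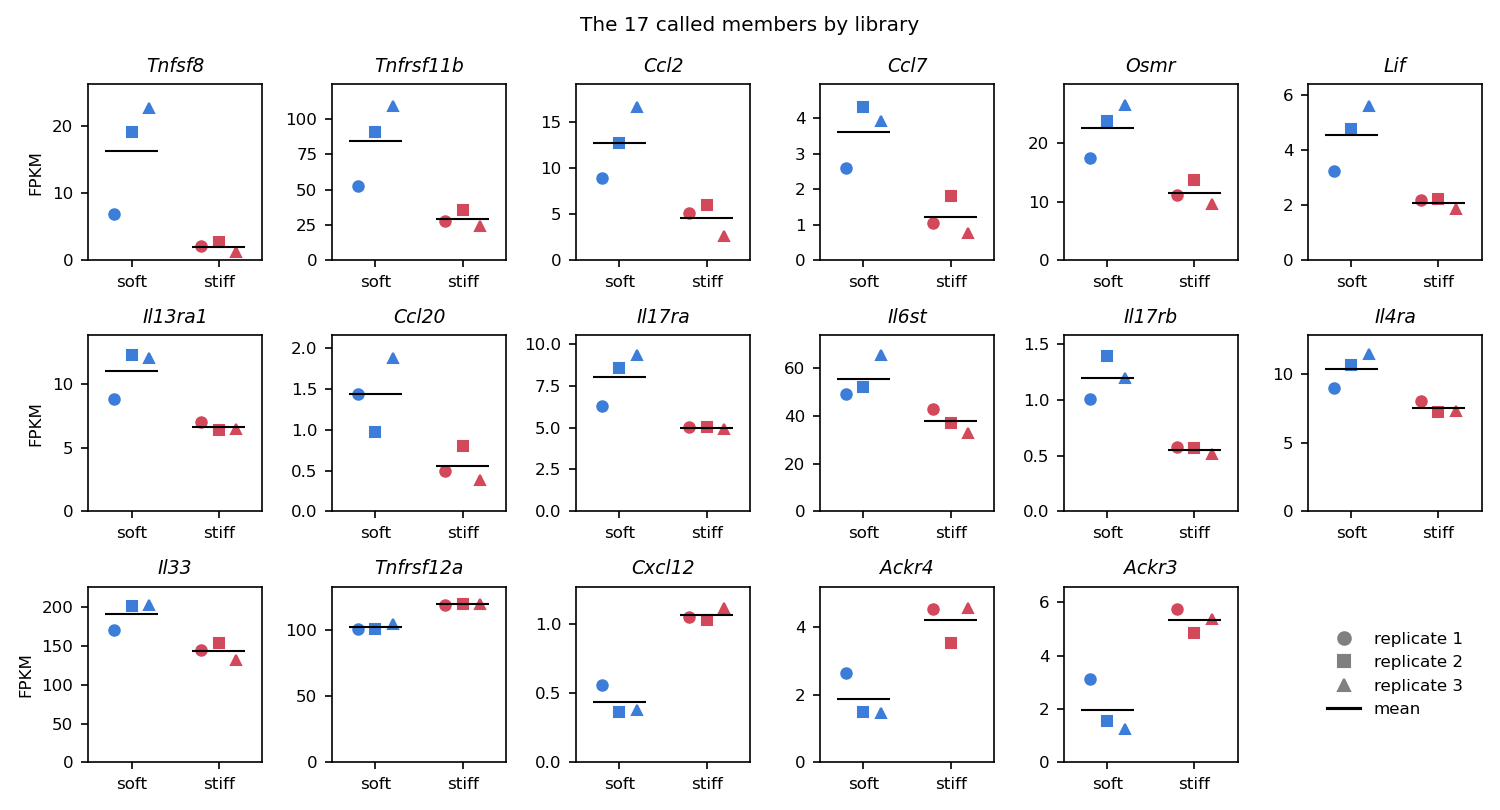
FPKM (fragments scaled by gene length and depth) of each called member in soft and stiff gels, 1 panel per gene with its own axis from 0; point shapes are replicates and lines are group means. In every panel the groups do not overlap, and in 12 of the 13 genes lower in stiff gels soft replicate 1 is the soft library nearest to the stiff ones.

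Upstream sequence was looked at for motifs of the transcription factors named above, in the 250 bases before each RefSeq start (build GRCm38.p6, the same coordinates as mm10). RefSeq promoters were found for 76 of the 98 members (95 starts). The NF-kB motif (GGG, any 2 bases, then TTTCC), searched on both strands like the others, was in 10 of these 95 windows (10.5%), beside 1.41% of all 32851 promoters. The AP-1 motif TGANTCA was in 14 (14.7%), beside 6.75% of all, and the STAT motif TTCNNNGAA in 7 (7.37%), beside 7.02%; the 3 patterns can overlap each other, and a match is a description of letters and not a site shown to be bound. Windows were found for 9 of the 13 members called lower (not for Ccl2, Ccl7, Tnfrsf11b and Il17ra) and for all 4 called higher. Among the 10 windows of those 9 members, 1 held the NF-kB motif (Ccl20), 2 held the AP-1 motif (Lif and Il17rb) and 0 held the STAT motif. The 4 windows of members called higher held 0 of the 3. The neutrophil chemokine gene Cxcl1, a textbook NF-kB target, was not called with all libraries. The 3 windows of called members with a match are shown, with that of Cxcl1 set beside Ccl20. Each is written 5′ to 3′ on the gene's strand with the matches in capitals; a match on the other strand appears as its reverse complement. The AP-1 match of Lif (chr11:4257318-4257567, plus strand) begins 228 bases before the start and that of Il17rb (chr14:30008897-30009146, minus strand) 104 bases before it. The NF-kB match of Ccl20 (chr1:83116516-83116765, plus strand) begins 80 bases before the start, and those of Cxcl1 (chr5:90890995-90891244, plus strand) 89 and 71 bases before it.
Lif: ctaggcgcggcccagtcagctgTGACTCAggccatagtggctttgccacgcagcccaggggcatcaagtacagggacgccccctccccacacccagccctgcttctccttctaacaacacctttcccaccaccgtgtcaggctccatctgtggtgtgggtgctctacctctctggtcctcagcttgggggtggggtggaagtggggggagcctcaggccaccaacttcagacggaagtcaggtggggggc
Il17rb: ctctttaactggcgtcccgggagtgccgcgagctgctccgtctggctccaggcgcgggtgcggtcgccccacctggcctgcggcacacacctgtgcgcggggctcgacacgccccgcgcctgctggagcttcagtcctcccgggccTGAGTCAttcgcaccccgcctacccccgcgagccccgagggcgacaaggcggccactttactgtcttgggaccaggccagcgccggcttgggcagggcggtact
Ccl20: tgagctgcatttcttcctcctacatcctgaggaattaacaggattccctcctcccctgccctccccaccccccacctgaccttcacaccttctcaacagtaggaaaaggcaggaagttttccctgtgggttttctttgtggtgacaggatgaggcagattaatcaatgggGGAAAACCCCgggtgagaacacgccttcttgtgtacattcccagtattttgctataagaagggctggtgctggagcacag
Cxcl1: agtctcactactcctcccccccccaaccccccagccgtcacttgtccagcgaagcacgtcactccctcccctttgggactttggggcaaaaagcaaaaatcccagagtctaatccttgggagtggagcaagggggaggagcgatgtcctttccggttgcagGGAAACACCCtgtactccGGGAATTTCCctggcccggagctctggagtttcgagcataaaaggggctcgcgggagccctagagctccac

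The largest change on the log2 scale among the tested members was that of Tnfsf8, which encodes CD30 ligand, a membrane protein known from activated lymphocytes (chromosome 4, 63831202 to 63861508). Its level was 7.0, 19.2 and 22.8 FPKM in soft replicates 1 to 3 and 2.08, 2.81 and 1.27 FPKM in stiff replicates 1 to 3. The groups did not overlap, but soft replicate 1 lay closer to the stiff libraries than to the other soft ones. The mean was 7.94 times as high in soft gels, and the fall was 2.39 ± 0.36 (SE) on the log2 scale (limma adjusted p = 0.0109). Tnfsf8 was called in 4 of the 6 fits that left out a library, more than any other member, with limma adjusted p from 9.3e-05 to 0.0617. The gene of its receptor, Tnfrsf8 (CD30), was under the level filter, at 0.215, 0.112 and 0.176 FPKM in soft and 0.112, 0.0832 and 0.284 FPKM in stiff gels, with overlapping groups. The neighbouring ligand gene Tnfsf15 on the same chromosome was at 0.0677 FPKM or less in all 6 libraries.

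Tnfrsf11b encodes osteoprotegerin, a secreted decoy receptor that binds the ligand RANKL and is known in the inner ear for protecting the bone of the otic capsule from resorption (chromosome 15, 54250619 to 54278484). It was at 52.4, 91.2 and 109 FPKM in soft gels and at 28.2, 36.0 and 24.3 FPKM in stiff gels. Every stiff library was below every soft one, and the mean was 2.85 times as high in soft gels (log2 fold change -1.44 ± 0.24 SE, limma adjusted p = 0.0147). The genes of RANKL and its signalling receptor RANK were far lower. Tnfsf11 (RANKL) was at 0.439, 0.375 and 0.425 FPKM in soft and 0.703, 0.365 and 0.417 FPKM in stiff gels, and Tnfrsf11a (RANK) was between 0.0808 and 0.178 FPKM over the 6 libraries. Per length, the decoy was the abundant gene of the 3 in both gels, and the ligand's groups overlapped.

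Tnfrsf12a, the receptor gene of the ligand TWEAK, was the TNF family member called higher in stiff gels. It was at 101, 101 and 105 FPKM in soft and 119, 120 and 120 FPKM in stiff gels, a difference of 1.17 times with little spread within either gel (log2 fold change 0.23 ± 0.05 SE, limma adjusted p = 0.0458). This call was lost with median-ratio scaling, with limma-voom on reads rebuilt from the FPKM and in the authors' deposited table (q = 0.108). The ligand gene Tnfsf12 was at 3.30, 3.73 and 2.37 FPKM in soft and 2.62, 4.26 and 3.11 FPKM in stiff gels and was not called; 48.3% of its exon bases are shared with the read-through gene Tnfsfm13, so its level is uncertain.

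Other TNF receptors were abundant and not called. Tnfrsf19 (TROY), known from progenitor cells and as a Wnt target, was the highest of these genes in soft gels, at 190, 156 and 140 FPKM, beside 168, 162 and 173 FPKM in stiff gels, with overlapping groups. Tnfrsf1a, which encodes the main TNF receptor, was at 82.8, 110 and 125 FPKM in soft and 70.3, 80.7 and 63.7 FPKM in stiff gels; the groups did not overlap, and the call was missed (limma adjusted p = 0.0603). Tnfrsf21, a death domain receptor gene, was at 22.9, 21.4 and 30 FPKM in soft and 18.9, 20.2 and 18.4 FPKM in stiff gels (limma adjusted p = 0.117). In the authors' deposited table Tnfrsf1a and Tnfrsf21 were lower in stiff gels (q = 0.000281 and 0.0168). Tnf itself was under the filter at 0.0679 to 0.387 FPKM over the 6 libraries. Of the TNF family, 14 members were tested, of which 1 was called higher and 2 lower.

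**Figure D2:**
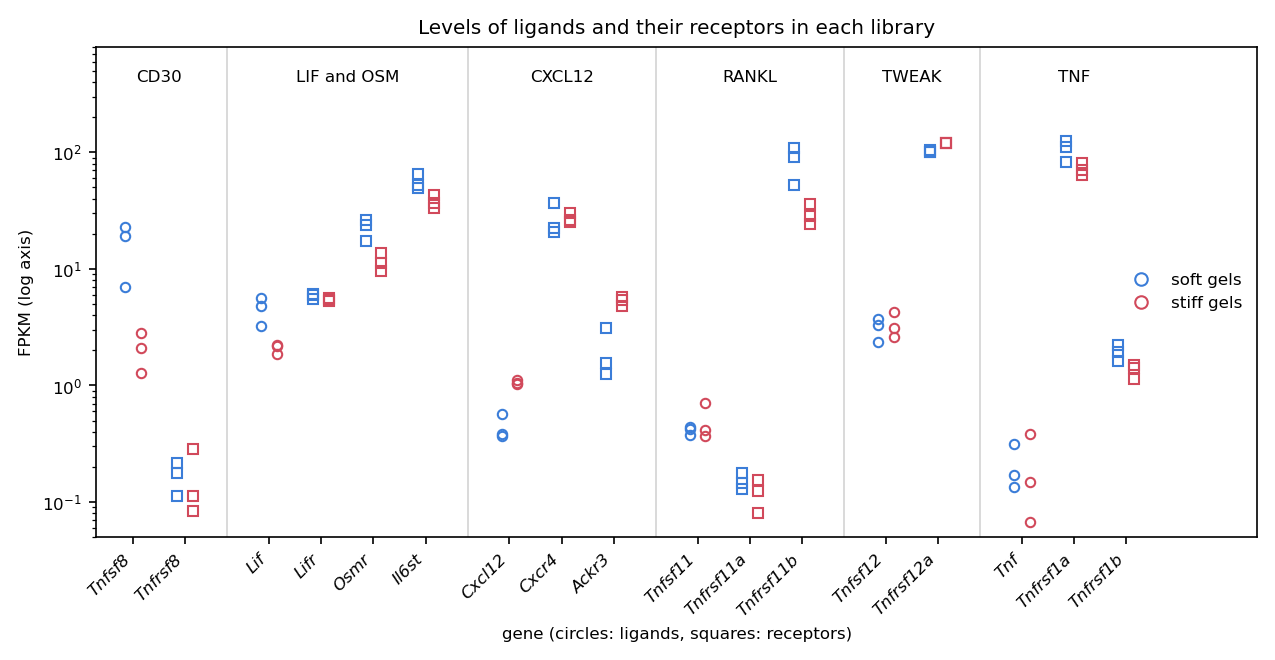
FPKM on a log axis of 6 sets of ligands (circles) and receptors (squares), with 1 point per library in soft (blue) and stiff (red) gels. Tnfsf8 lies well above its receptor gene Tnfrsf8, and the decoy receptor gene Tnfrsf11b well above the RANKL and RANK genes Tnfsf11 and Tnfrsf11a. Tnfrsf8, Tnfsf11 and Tnfrsf11a are all under 1 FPKM, while Tnfrsf12a, Tnfrsf1a and Cxcr4 lie above their ligands.

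The gp130 group had 3 of its 5 tested members lower in stiff gels. Lif encodes leukaemia inhibitory factor, which keeps several kinds of progenitors undifferentiated (chromosome 11, 4257568 to 4272514). Its level was 3.23, 4.76 and 5.61 FPKM in soft and 2.19, 2.24 and 1.86 FPKM in stiff gels. The stiff libraries were close together and all under the soft ones (log2 fold change -0.81 ± 0.15 SE, limma adjusted p = 0.0198). Osmr, which encodes the specific subunit of the oncostatin M receptor (chromosome 15, 6813568 to 6874968), was at 17.4, 23.8 and 26.4 FPKM in soft and 11.2, 13.7 and 9.56 FPKM in stiff gels, and fell by 0.91 ± 0.16 (SE) on the log2 scale (limma adjusted p = 0.0159). Il6st, the shared signalling subunit (chromosome 13, 112464070 to 112506860), was at 49.3, 52.1 and 65.3 FPKM in soft and 43.0, 37.0 and 33.0 FPKM in stiff gels (log2 fold change -0.55 ± 0.12 SE, limma adjusted p = 0.0348). Lifr, which with gp130 forms the LIF receptor, lies on the same chromosome as Osmr. It was at 6.12, 5.52 and 5.98 FPKM in soft and 5.30, 5.65 and 5.46 FPKM in stiff gels, with overlapping groups and no call (log2 fold change -0.09 ± 0.07 SE). Il11ra1, the interleukin-11 receptor gene, was at 14.5, 20.5 and 16.3 FPKM in soft and 14.1, 17.2 and 14.7 FPKM in stiff gels and was not called; near-identical copies of this gene exist, so its reads may be split between them. The genes Il6ra, Il11 and Il27ra were under the filter, none of their libraries being above 0.678 FPKM.

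Downstream, the JAK-STAT list of 31 genes (kinases, STAT factors, inhibitors and targets) had 30 tested genes, of which 0 were higher (limma; 3 at an unadjusted p under 0.05) and 5 lower, a share of 16.7% beside the 5.81% of all genes. The median log2 fold change of the list was -0.02, beside 0.03 for all genes. Socs3 was at 13.9, 21.8 and 22.5 FPKM in soft and 7.62, 7.52 and 4.98 FPKM in stiff gels (log2 fold change -1.40 ± 0.19 SE, limma adjusted p = 0.00933). It was called in 5 of the 6 fits without a library. Cebpd, a transcription factor gene of the acute phase response, was at 7.53, 9.69 and 9.47 FPKM in soft and 4.72, 4.76 and 3.46 FPKM in stiff gels (limma adjusted p = 0.00933) and also kept its call in 5 of the 6. For both genes the stiff libraries were all clearly below the soft ones. The other called genes, named after their values were seen, were Cebpb, Bcl6 and Jak3, with log2 fold changes of -1.08, -0.31 and -0.77. They kept their calls in only 2, 1 and 1 of the 6 fits without a library. Stat3, the main STAT of gp130, was at 62.2, 71.0 and 76.5 FPKM in soft and 57.6, 57.0 and 47.7 FPKM in stiff gels and was not called (limma adjusted p = 0.0635), and Jak1 was not called either (limma adjusted p = 0.0758).

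**Figure D3:**
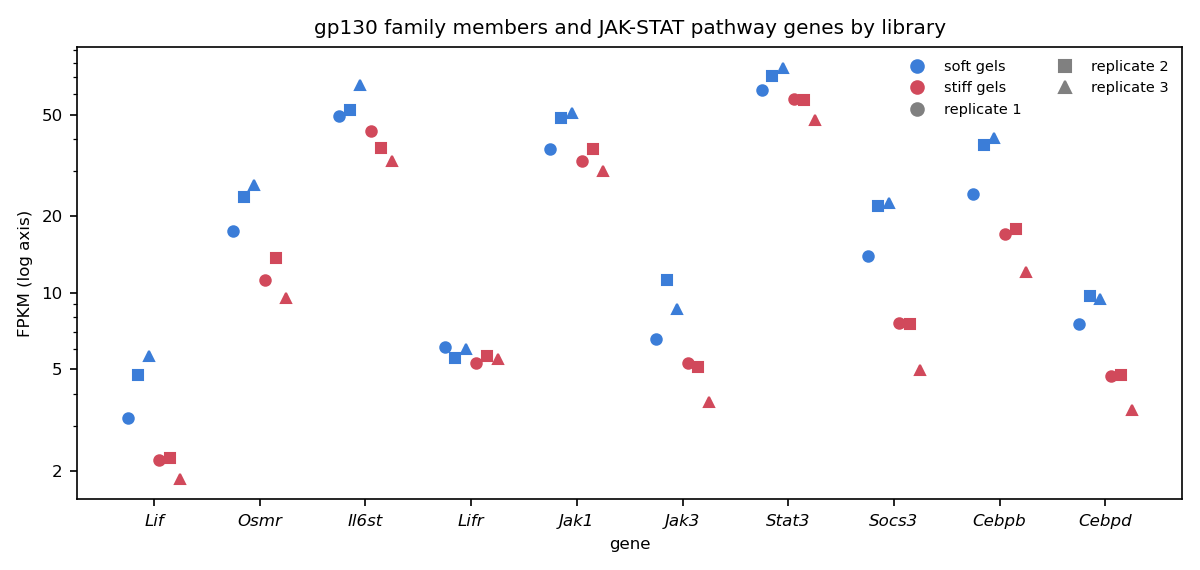
FPKM on a log axis of 4 gp130 group members and 6 JAK-STAT list genes in each of the 6 libraries, with point shapes for replicates. Lif, Osmr, Il6st, Socs3, Cebpb, Cebpd and Jak3 are lower in all 3 stiff libraries, Lifr overlaps, and soft replicate 1 is the lowest soft library for most of them.

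The chemokine family was called in both directions, with 3 of 15 tested members higher and 3 lower, beside 3.13% and 2.68% of all tested genes. With the filter on the mean over all 6 libraries, 12 were tested, of which 2 were higher and 2 lower. Ccl2 and Ccl7 encode chemokines that draw monocytes through the receptor CCR2, and both fell. Ccl2 (chromosome 11, 82035577 to 82037452) was at 8.88, 12.7 and 16.6 FPKM in soft and 5.08, 5.99 and 2.62 FPKM in stiff gels (log2 fold change -1.32 ± 0.26 SE, limma adjusted p = 0.0232). Ccl7 (chromosome 11, 82045712 to 82047525) was at 2.59, 4.32 and 3.91 FPKM in soft and 1.05, 1.82 and 0.775 FPKM in stiff gels, from 204 reads in all (log2 fold change -1.06 ± 0.19 SE, limma adjusted p = 0.0176). The groups did not overlap for either gene. These are neighbours in a cluster of 5 member genes (chromosome 11, 82035577 to 82116799). The other 3 genes of the cluster were not called: Ccl8 was at 3.27, 1.20 and 2.95 FPKM in soft and 3.73, 4.78 and 2.19 FPKM in stiff gels, and Ccl11 and Ccl12 were under the filter.

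Ccl20, the ligand of CCR6, was at 1.44, 0.975 and 1.88 FPKM in soft and 0.490, 0.798 and 0.387 FPKM in stiff gels (log2 fold change -0.63 ± 0.16 SE, limma adjusted p = 0.0485). It rested on 84 reads, passed the level filter through the soft gels only, and was called neither by limma-voom on the rebuilt reads nor in the authors' deposited table (q = 0.141). Cx3cl1, the membrane-bound chemokine fractalkine that in the cochlea acts on macrophages, was at 22.5, 23.6 and 27.9 FPKM in soft and 17.6, 20.6 and 14.5 FPKM in stiff gels, without overlap and without a call (limma adjusted p = 0.0592). Cx3cl1 was lower in the authors' deposited table (q = 0.00203) and by limma-voom on the rebuilt reads (adjusted p = 0.0384). Cxcl1 was at 7.07, 11.8 and 11.8 FPKM in soft and 6.64, 7.98 and 5.72 FPKM in stiff gels. Soft replicate 1 lay within the stiff range and the gene was not called (limma adjusted p = 0.14). Without that library Cxcl1 was called lower in stiff gels (log2 fold change -0.72, limma adjusted p = 0.00348). Leukocyte markers were looked at beside these chemokines. Of 18 such markers 7 were listed and 1 was tested, Cd68, which was not called, at 4.58 to 6.82 FPKM over the 6 libraries. The listed markers summed to between 5.60 and 8.63 FPKM in soft and between 6.31 and 8.63 FPKM in stiff gels, and the macrophage gene Lyz2 was at 0 in 5 of the 6 libraries.

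The chemokine genes that rose were Cxcl12, its scavenger receptor Ackr3 and the scavenger receptor Ackr4, while the signalling receptor Cxcr4 of CXCL12 was not called; the difference between these genes' changes was not tested. Cxcl12 guides migrating progenitors and neurons (chromosome 6, 117168535 to 117181368). It was at 0.564, 0.367 and 0.382 FPKM in soft and 1.05, 1.03 and 1.12 FPKM in stiff gels, without overlap, and passed the filter through the stiff gels only (log2 fold change 0.53 ± 0.10 SE, limma adjusted p = 0.0202). Ackr3 (chromosome 1, 90203980 to 90215724) was at 3.14, 1.56 and 1.25 FPKM in soft and 5.77, 4.84 and 5.38 FPKM in stiff gels, 2.69 times as high on average (log2 fold change 1.14 ± 0.20 SE, limma adjusted p = 0.0159). Cxcr4 was at 36.8, 22.6 and 20.8 FPKM in soft and 26.2, 25.1 and 29.9 FPKM in stiff gels (log2 fold change 0.06 ± 0.18 SE). Soft replicate 1 was the highest of all 6 libraries for Cxcr4, and without it the gene was called higher in stiff gels. Ackr4, which scavenges the chemokines CCL19, CCL21 and CCL25 (chromosome 9, 104097682 to 104126643), was at 2.64, 1.49 and 1.47 FPKM in soft and 4.52, 3.52 and 4.57 FPKM in stiff gels (log2 fold change 0.88 ± 0.16 SE, limma adjusted p = 0.0176). Its exons overlap Acad11 on the other strand over 8.9% of their bases, and the kit does not mark strand, so reads of the overlap cannot be told apart. Ccl25, which encodes a ligand of Ackr4, was at 2.32, 2.20 and 2.64 FPKM in soft and 2.45, 2.48 and 3.18 FPKM in stiff gels and was not called.

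Markers of the labelled tissue rose beside these 3 genes. Of 13 prosensory and supporting cell markers 12 were listed and 10 tested; 6 of these rose in stiff gels and 0 fell. The list summed to 266 to 355 FPKM in soft and 467 to 539 FPKM in stiff gels, highest among the soft libraries in replicate 1. None of 8 tested mesenchymal markers was called by limma. Of these, 4 had a higher and 4 a lower mean log2 level in stiff gels. An unadjusted p under 0.05 was reached by 3, of which 2 were higher and 1 lower. The mesenchymal list summed to 1110 to 1160 FPKM in soft and 1240 to 1260 FPKM in stiff gels, but its genes differed in direction. The means in soft and stiff gels were 326 and 411 FPKM for Lum and 72.7 and 35.1 FPKM for Col3a1. Of 8 epithelial markers, all tested, 2 were higher in stiff gels and 0 lower, the tight junction genes Cldn6 and Cldn7. Cldn6 was at 70.8, 76.0 and 75.3 FPKM in soft and 102, 101 and 96.2 FPKM in stiff gels (limma adjusted p = 0.00964). It was called in all 6 fits without a library, and Cldn7 (limma adjusted p = 0.0369 with all libraries) in 1 of the 6. The epithelial list summed to 1110 to 1190 FPKM in soft and 1160 to 1310 FPKM in stiff gels. Of 5 tested endothelial markers 1 was called, Kdr, which was lower; the defining genes Pecam1 and Tie1 were at 0.134 FPKM or less, while Emcn was at 326 to 423 FPKM. Of 10 hair cell markers 7 were listed and 3 tested, with 0 called by limma and 1 at an unadjusted p under 0.05. The part of these cell types in the cytokine and chemokine results was not tested.

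In the interleukin-1 family, the alarmin gene Il33 was the most abundant ligand (chromosome 19, 29925113 to 29960718). It was at 170, 201 and 202 FPKM in soft and 145, 153 and 131 FPKM in stiff gels. The groups did not overlap, the mean was 1.33 times as high in soft gels, and the call passed (log2 fold change -0.41 ± 0.09 SE, limma adjusted p = 0.0323). Il1rap, the accessory receptor subunit shared by interleukin-33 and interleukin-1, was at 2.48, 2.60 and 2.83 FPKM in soft and 2.26, 2.32 and 2.08 FPKM in stiff gels and was not called (limma adjusted p = 0.257). The interleukin-1 receptor gene Il1r1 was at 2.64 to 4.85 FPKM in soft and 1.28 to 2.62 FPKM in stiff gels and just missed the call (limma adjusted p = 0.0568). The binding protein gene Il18bp was at 1.67 to 1.83 FPKM in all 6 libraries.

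Of 4 tested interleukin-17 receptor genes, 2 were lower in stiff gels and 0 higher. With the filter on the mean over all 6 libraries, 3 of these genes were tested and 1 was lower. Both chains of the receptor shared by interleukin-4 and interleukin-13 were lower. Il17ra, the shared subunit of interleukin-17 receptors (chromosome 6, 120463181 to 120483731), was at 6.26, 8.55 and 9.31 FPKM in soft and 5.04, 5.01 and 4.89 FPKM in stiff gels (log2 fold change -0.58 ± 0.12 SE, limma adjusted p = 0.0288). Il17rb, the subunit that pairs with it for interleukin-25 (chromosome 14, 29996168 to 30008896), was at 1.01, 1.39 and 1.20 FPKM in soft and 0.574, 0.567 and 0.514 FPKM in stiff gels (log2 fold change -0.50 ± 0.10 SE, limma adjusted p = 0.0249). It passed the filter through the soft gels only. In both genes the stiff libraries lay within a narrow range under the soft ones. The other interleukin-17 receptor genes tested, Il17rc and Il17re, and the ligand gene Il17d were not called, and Il17c was at 0.196 FPKM or less.

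Il4ra and Il13ra1 encode the 2 chains of the receptor that binds interleukin-4 and interleukin-13. Il13ra1 (chromosome X, 36112108 to 36171262) was at 8.82, 12.3 and 12.1 FPKM in soft and 7.08, 6.40 and 6.50 FPKM in stiff gels (log2 fold change -0.64 ± 0.12 SE, limma adjusted p = 0.0176). Il4ra (chromosome 7, 125552271 to 125579474) was at 8.98, 10.6 and 11.4 FPKM in soft and 7.99, 7.25 and 7.29 FPKM in stiff gels (log2 fold change -0.41 ± 0.09 SE, limma adjusted p = 0.0348). Every stiff library was below every soft one for both chains. An antisense gene covers 9.5% of the exon bases of Il4ra. Of the other 4 tested members of this type I receptor group, Il15, Il15ra, Il3ra and Csf2ra, 0 were called by limma and 1 had an unadjusted p under 0.05. That gene, Il15ra, at 1.17 to 1.63 FPKM in soft and 1.79 to 2.23 FPKM in stiff gels and was higher in the authors' deposited table (q = 0.0235).

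Interferon and interleukin-10 type receptors were expressed and showed no call. All 7 tested members of this group had log2 fold changes between -0.13 and 0.06, with 0 called by limma and 0 at an unadjusted p under 0.05. Ifnar1 was at 19.3, 19.7 and 19.5 FPKM in soft and 18.5, 18.7 and 16.9 FPKM in stiff gels. Ifngr2 was at 20.7, 17.9 and 18.9 FPKM in soft and 18.3, 18.8 and 19.5 FPKM in stiff gels, and Ifngr1 at 12.8, 15.3 and 15.9 FPKM and 13.1, 16.4 and 14.9 FPKM. The lambda interferon receptor gene Ifnlr1 was at 10.6, 10.6 and 8.86 FPKM in soft and 10.8, 9.69 and 10.8 FPKM in stiff gels. Il10rb, a subunit shared by the interleukin-10 and lambda receptors, was at 8.88, 10.5 and 9.87 FPKM in soft and 9.6, 10.1 and 10.8 FPKM in stiff gels. Except for Ifnar1, the groups of these 5 genes overlapped. Ifnar2, Il10rb, Ifnar1 and Ifngr2 lie side by side (chromosome 16, 91372783 to 91564007). Of 13 tested interferon response genes 0 were called (limma; 4 had an unadjusted p under 0.05). Csf1, the macrophage growth factor gene, was at 12.5, 13.7 and 15.1 FPKM in soft and 11.8, 11.2 and 9.13 FPKM in stiff gels, without overlap and without a call (limma adjusted p = 0.091). In the authors' deposited table Csf1 was lower in stiff gels (q = 0.0189).

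**Figure D4:**
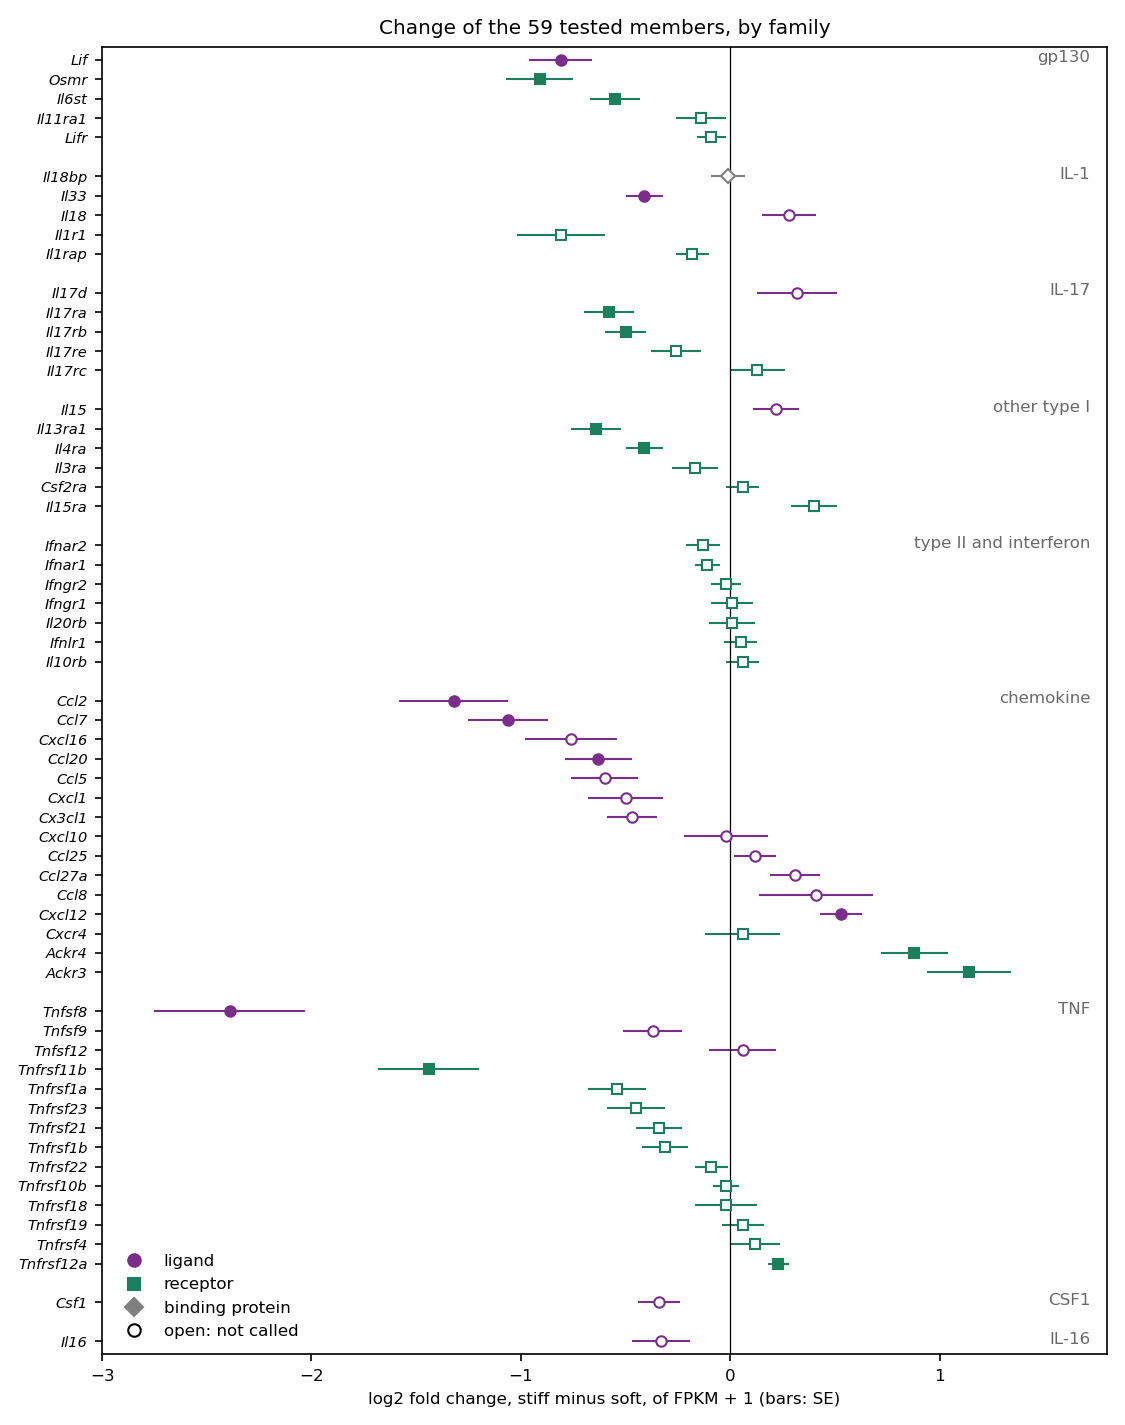
Log2 fold change of FPKM + 1, stiff minus soft, with its SE for the 59 tested members by family; circles are ligands, squares receptors, the diamond Il18bp, and filled symbols are called. Tnfsf8 lies farthest to the left at -2.39 and Ackr3 farthest to the right at 1.14, while the 7 interferon group receptors lie within -0.13 and 0.06.

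Ligands and receptors were set side by side by their counts. Of 22 tested ligands 1 was higher and 6 (27.3%) were lower, and of 36 tested receptors 3 were higher and 7 (19.4%) were lower, beside 2.68% of all tested genes lower. The median log2 fold change was -0.35 for ligands and -0.10 for receptors; the difference between the classes was not tested. Of the 7 members that passed the filter through 1 gel, 5 were ligands. Without the choice made by the filter, the mean in stiff gels was below that in soft gels for 30 of all 43 ligands (69.8%), 34 of all 54 receptors (63.0%) and 43.3% of all 15016 genes. Over the 98 members, 40 had groups that did not overlap (32 with stiff below soft, 8 above), beside 24.8% of all genes in the table (10.3% below and 14.5% above). Among the 59 tested members 30 had such groups, beside 25.9% of tested genes, and 31 had an unadjusted p under 0.05, beside 21.7%. The authors' deposited table had 22 of the 59 at q under 0.05, beside 9.46% of the same tested genes; 15 of the 17 calls were among them, in the same direction.

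The NF-kB list had 35 tested genes, of which 5 had an unadjusted limma p under 0.05, all lower in stiff gels. Of all 11780 tested genes 21.7% had such a p, 1065 of them lower and 1497 higher. In the authors' deposited comparison 3 of the list were lower at q under 0.05 and 0 higher, beside 9.46% of all tested genes in either direction. By adjusted p in limma, 0 were higher and 1 lower, a share of 2.86%, beside 2.68% of all tested genes lower. That gene was Bcl3, an IkB family protein that binds NF-kB p50 and p52 and acts with them in the nucleus, at 35.2, 45.6 and 55.0 FPKM in soft and 18, 22.4 and 14.4 FPKM in stiff gels (log2 fold change -1.26 ± 0.18 SE, limma adjusted p = 0.00964). Its stiff libraries were all clearly below the soft ones, and it was called in 4 of the 6 fits without a library. Of 14 tested genes of death receptor signalling 0 were called (limma; 2 had an unadjusted p under 0.05).

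The 39 members under the level filter were 21 ligands and 18 receptors. Their group means reached at most 0.778 FPKM, from 8 to 228 reads over the 6 libraries (median 67). Ccl9 and Il18rap were at 0 in all 3 stiff libraries, and with at most 0.111 FPKM in any soft library a change was not detectable at this depth. Ccr7 was the only listed gene of the Ccr receptors, at 0.226 to 0.566 FPKM in soft and 0.0295 to 0.126 FPKM in stiff gels. In limma-voom on the rebuilt reads of every gene, which called 6.49% of 15016 genes, 1 of the 39 was called: Csf3, which encodes the granulocyte growth factor G-CSF, at 0.298, 0.317 and 0.260 FPKM in soft and 0.0579, 0.0300 and 0.0641 FPKM in stiff gels (log2 fold change -2.29, limma-voom adjusted p = 0.041). Csf3, with 35 reads in all, was also called lower by limma on log2(FPKM + 1) with no level filter. In the authors' deposited comparison, 0 of the 39 had a q under 0.05.

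The number of calls changed with single libraries, among the members and over the whole table alike. Depth was 16108470 to 17899391 rebuilt reads per library. Within the soft group, replicate 1 had the lowest value in 12 of the 13 members that fell and the highest in 3 of the 4 that rose; it was also the lowest soft library for 76.3% of the 316 genes of the table called lower and for 33.2% of all tested genes. Relative to the mean of the 6 libraries, the median log2 level of the 13 members was 0.11, 0.47 and 0.58 in soft replicates 1 to 3 and -0.36, -0.27 and -0.48 in stiff replicates 1 to 3. Without soft replicate 1, 6 members were called higher and 22 lower, and of all tested genes 859 and 756 were, in place of 369 and 316. Leaving out soft replicate 2 or stiff replicate 1 left 0 members called in either direction by limma, with 29 and 32 members at an unadjusted p under 0.05. Over the whole table, the first of these fits called 50 genes higher and 15 lower, with 2002 at an unadjusted p under 0.05, and the second called 65 and 47, with 2351. Leaving out soft replicate 3 left 1 member higher and 2 lower (124 and 85 of all genes); with stiff replicate 2 removed the counts were 2 and 11 (222 and 216), and with stiff replicate 3 removed they were 0 and 1 (89 and 54). Over the 6 fits, the log2 fold changes of the 17 called members stayed between 78.1% and 126% of their value with all libraries. These members were called from the same libraries that the fits share, so this range is no independent test of their changes. It does not cover members that were not called. Without soft replicate 2 they were at 87.8% to 122% of it, and without stiff replicate 1 at 94.7% to 118%. Why the calls were lost in these 2 fits was not tested. The 3 calls left without soft replicate 3 were Ackr3, Tnfrsf11b and Tnfsf8, and the 1 call left without stiff replicate 3 was Tnfsf8. Testing every gene with no level filter ended the calls of Il17ra, Il33, Il4ra, Il6st and Ccl20 and added Csf3 as lower in stiff gels.

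**Figure D5:**
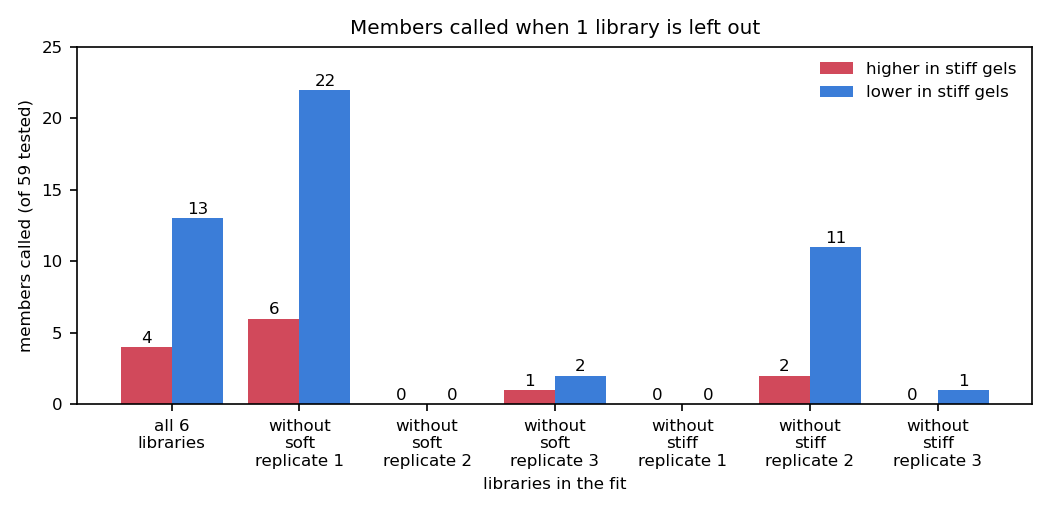
Number of the 59 tested members called higher (red) or lower (blue) in stiff gels by limma at an adjusted p under 0.05, with all 6 libraries and with 1 library left out. The counts run from 0 and 0 without soft replicate 2 or stiff replicate 1 to 6 and 22 without soft replicate 1.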

How the data were processed

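RNA-seq was compared in 3 libraries from soft and 3 from stiff gels. The members, gene lists and tests were chosen with earlier results of these data known. Per the labels' protocols, RNA was extracted with TRIzol and a column kit, and TruSeq v2 libraries were read on an Illumina HiSeq. Alignment used TopHat2 2.1.1 and mm10, and the comparison DESeq2, per the submitters' processing notes; the counter is not given in the sources used here, nor is the annotation. The expression columns deposited by the authors were taken as FPKM, a unit read from the values. The base mean the authors deposited is a signal, the mean of normalized counts. The log2 fold change, its standard error (unit: score), the linear fold change, the test score, the p-value and the q-value are from the authors' own comparison, per the file headers.

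Low FPKM values came in steps of 1 read, so reads could be rebuilt with the base mean: 100.0% of values came out whole within 0.05 reads, and 100.0% of counts were rebuilt in simulated data over 14983 genes. Depth was 16108470 to 17899391 reads per library, at which 3 reads, the limit a count of 0 allows, are 0.168 to 0.186 CPM (counting error only). The planned count test did not apply to FPKM, so the main test was limma (3.58.1, under R 4.3.3), with an intensity trend, on log2(FPKM + 1), which understates the change of low genes, of the 11780 genes with a mean of at least 1 FPKM in either gel, over 6 libraries with no block. Genes with a Benjamini-Hochberg adjusted p under 0.05 were called. In data simulated for this comparison over 11730 genes, the fit recovered 89% of genes changed 1.5-fold and 100% of those changed 2-fold. It made 19 false calls among 208. The changed genes were drawn only from genes above a read minimum, and no simulated library was shifted from its group. The recovery therefore does not cover members with few reads, such as Ccl20, or a library that lies apart from its group. Errors are SE of the log2 fold change over 3 libraries a group. Alternatives changed the filter, the pseudocount (0.1), the scaling (median-ratio), the model (limma-voom on rebuilt reads), the block and the libraries, or took the authors' table.

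Values in every library are given for called members, members with a mean of at least 10 FPKM in either gel and listed partners of called members; in each pathway list, up to 2 called genes per direction with the lowest adjusted p. Coordinates and upstream sequences are from RefSeq on GRCm38.p6, and exon overlaps from GENCODE vM21.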

Additional observations from a re-analysis of the deposited data

How the results depend on the processing

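Leaving out 1 library gave 0 to 6 members called higher and 0 to 22 called lower, 0 to 11 ligands called lower and 0 to 11 receptors called lower, beside 4, 13, 6 and 7 with all 6 libraries; these fits have fewer samples, and over the whole table they called 50 to 859 genes higher and 15 to 756 lower, beside 369 and 316. With no filter on low values, which tests more genes, 4 receptors were called lower. Under the other settings the counts stayed within 1.5 times: 3 to 4 members higher and 9 to 18 lower. A pseudocount of 0.1 gave the same 17 calls. Limma-voom on rebuilt reads gave 4 higher and 15 lower, and on every gene, an alternative chosen after seeing the data, 4 and 16. The authors' table gave 4 and 18. With the replicate block, 3 were higher and 13 lower: Tnfrsf12a, Ccl20, Il4ra and Il6st lost their calls and Cxcl16, Il1r1 and Tnfrsf1a gained one. Same-numbered libraries had correlations of 0.00873, 0.219 and -0.211 in their deviations from the group means. Not every library correlated best with its own number. With 3 libraries a group, these values cannot decide whether the numbers pair the libraries. For the lost and gained calls, the cause was not tested. Depth limits the 39 members under 1 FPKM and Ccl20 (84 reads).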
